A study of Mus musculus with 57 samples.

Results

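Fluoxetine-treated mice were set against vehicle-treated mice across both Shank2 genotypes, using 38 of the 57 prefrontal cortex RNA-seq libraries of the study. The 20 fluoxetine libraries came from 10 mice heterozygous for Shank2 (HT) and 10 wild-type (WT) mice, and the 18 vehicle libraries from 10 HT and 8 WT mice. Each group was divided evenly by sex, into 5 females and 5 males in HT fluoxetine, WT fluoxetine and HT vehicle, and 4 females and 4 males in WT vehicle. The libraries were chosen by their labels alone, and the drug effect of a gene was taken as the mean of the fluoxetine minus vehicle differences within the 4 strata HT female, HT male, WT female and WT male. All mice were C57BL/6N and were sampled on postnatal day 25. Drug or vehicle had reached the pups through maternal milk from day 3 to day 24, so the dam was dosed and the pup exposed in every group. The labels name no dose, no Shank2 allele, no dam and no litter. The p-values therefore measure the spread between libraries, and pups of 1 litter may be among them. A further 19 libraries came from lithium-treated HT and WT mice, and these entered the model to estimate the spread of each gene.

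Fluoxetine blocks the serotonin transporter, which returns released serotonin to the nerve terminal, and so prolongs serotonin signalling. Serotonin axons from the raphe reach the prefrontal cortex before birth and continue to branch there in early postnatal life. The drug passes into milk. The cells whose RNA was measured are mostly targets of those axons, since the cell bodies that make serotonin lie in the brainstem.

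The deposited table held normalized counts, which the submitters' processing notes tie to Salmon and DESeq2. They summed to between 30378902 and 33234604 per library, and 16659 genes had a mean of at least 10 and were tested. The number of reads behind each library is unknown. Shank2 averaged 4388 ± 322 in HT libraries and 9882 ± 1086 in WT libraries (SD, n = 30 and 27), with no overlap, and Xist and Ddx3y separated the sexes as labelled. Cortical markers were present in all 38 libraries, with Slc17a7, the vesicular glutamate transporter of cortical excitatory neurons, between 44452 and 68522 normalized counts. The striatal marker Drd2 ran between 19.3 and 779.8 and the choroid plexus marker Ttr between 0 and 252. Of 18 vehicle libraries, WT vehicle male 2 had the highest mean level of the ribosomal, complex I and unfolded protein response lists, and HT fluoxetine male 3 had the lowest of those lists among the 20 fluoxetine libraries.

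Fluoxetine was followed by many small changes rather than a few large ones. At an adjusted p under 0.05 in limma, with Benjamini-Hochberg adjustment over all genes tested, 791 genes differed (4.75% of those tested), 280 higher (1.68%) and 511 lower (3.07%). Leaving out WT vehicle male 2 gave 486, 159 higher and 327 lower. The 791 are described here. Their median size was 0.17 on the log2 scale, a change of 12.6%, and 24 of them exceeded 0.5. In 693 of the 791 the difference had 1 sign in all 4 strata. Of the 791, 505 (3.03% of genes tested) also had an unadjusted p under 0.05 with the same sign in HT and in WT, 145 higher (0.87%) and 360 lower (2.16%). These 505 are called shared here. Because the pooled effect is the mean of the effects in both genotypes, that count is a description of the 791 and not a second test.

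The difference in HT and that in WT use no common library. Both tests use the same spread estimate of each gene, so calls in HT and WT are not independent. In HT alone 55 genes were called (0.33%), 15 higher (0.09%) and 40 lower (0.24%). In WT alone 140 were called (0.84%), 54 higher (0.324%) and 86 lower (0.516%). Without WT vehicle male 2 the HT count rose to 203 and the WT count fell to 5. That library enters the HT test through the spread estimate alone, while the WT difference also uses its values. Genes called in both numbered 21, and every one was lower under fluoxetine. They comprise ribosomal protein genes (Rps21, Rps10, Rpl38, Rpl17, Rpl13a, Rpl39, Rpl41 and Rpl24), respiratory chain genes (Ndufb2, Ndufa2, Ndufs4, Cox7a2, Uqcrq, Atp5e and Atp5l), and Sar1b, Gng13, Mtln, Tmem256, Cops9 and Gm10177. Mtln encodes a micropeptide of the mitochondrial membrane, Sar1b a GTPase of vesicles leaving the endoplasmic reticulum, and Gng13 a G protein subunit. Of the 55 genes called in HT, 52 had the same sign in WT and 34 an unadjusted p under 0.05 there in that direction, which 11% of all genes had. Their median size was 0.29 in HT and 0.21 in WT. Of the 140 called in WT, 121 had the same sign in HT, with a median size of 0.27 in WT and 0.14 in HT. With the transcript-length term described further on, 109 genes were called in HT, 0 in WT and so 0 in both, and 29 of the 109 had an unadjusted p under 0.05 in the same direction in WT, as did 4.99% of all genes. Across all 16659 genes the effects in HT and WT had a Pearson r of 0.23 and a Spearman rho of 0.28, and 60.6% had the same sign. These points are genes measured in the same libraries and are not independent.

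**Figure D1:**
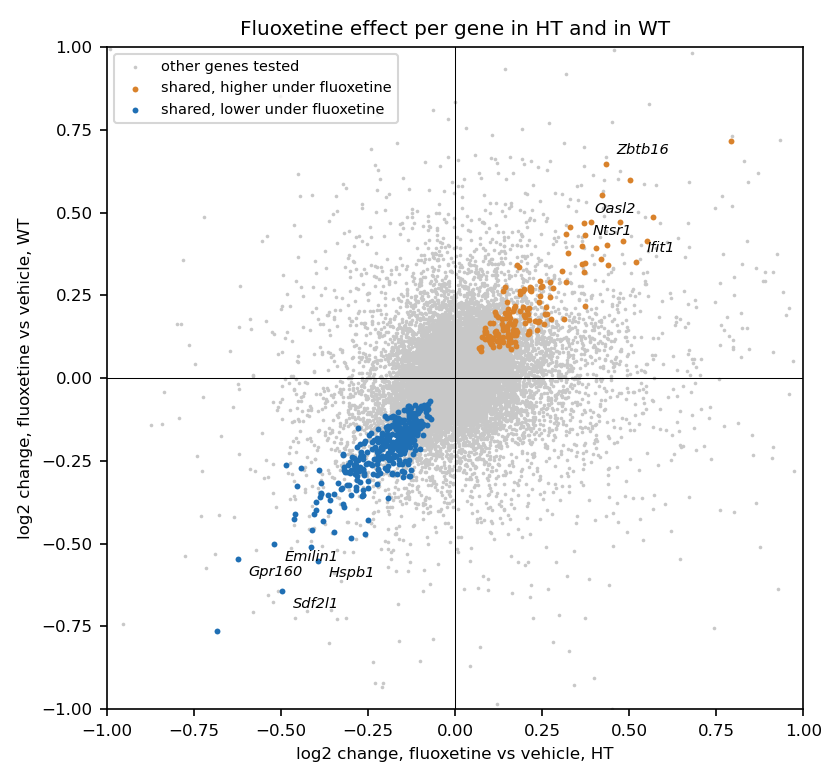
Each point is a gene, placed by its log2 change, fluoxetine against vehicle, in HT (horizontal axis) and in WT (vertical axis). Shared genes are coloured, 145 higher in orange and 360 lower in blue, and lie in 2 opposite quadrants by their definition; 101 genes fall outside the plotted range of 1 in either direction.

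No gene passed the test of a difference between the genotypes in the drug effect, in limma, while 1285 genes (7.71%) had an unadjusted p under 0.05. A single gene, Sox8, a transcription factor of glial cells, passed the test of a difference between the sexes, 0.006% of those tested, and its effect was the higher one in females. At an unadjusted p under 0.05 there were 1920 genes (11.5%). Sox8 averaged 1444 ± 172 in fluoxetine females and 1085 ± 122 in fluoxetine males (SD, n = 10 each), against 1288 ± 125 in vehicle females and 1417 ± 139.8 in vehicle males (SD, n = 9 each). Its fluoxetine effect was higher in females than in males by 0.56 on the log2 scale (adjusted p = 0.00207, limma).

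The serotonin system itself showed no called change. Of its 22 listed genes, 18 were abundant enough to test, and none was called in either direction, with a median change of 0.02 beside 0.01 for all genes tested. Slc6a4, the serotonin transporter that fluoxetine binds, had a mean of 3.54 normalized counts over all libraries and was not tested, and neither were Htr2b, Htr3b and Fev. Htr2a, the excitatory receptor of cortical pyramidal neurons, averaged 2129 ± 159 under fluoxetine and 2047 ± 233 under vehicle (SD, n = 20 and 18; log2 change 0.07, SE 0.04, adjusted p = 0.361). Htr1a, the inhibitory receptor also found on serotonin neurons, averaged 679 ± 81.8 under fluoxetine and 670.3 ± 74.8 under vehicle (log2 change 0.02, SE 0.05, adjusted p = 0.881). Htr4 had the highest log2 change among the 18, at 0.49 with an SE of 0.26 (adjusted p = 0.28). The neurotrophin and CREB target list, which holds Bdnf and its receptors, had no called member among 22, with a median of 0.

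Genes for the cytosolic ribosome, the machine that translates mRNA, made up the most numerous group. Of 82 tested, 50 (61%) fell under fluoxetine and none rose, against 3.07% lower among all genes, and 44 of the 50 were shared. The median change was -0.16, at -0.13 in HT and -0.18 in WT. Rpl39, a small protein of the large subunit (chromosome X, 37082520 to 37085402 in GRCm38), ran from 829 through a median of 1017 to 1349 normalized counts under fluoxetine, and from 1121 through 1307 to 1973 under vehicle. The groups overlapped, yet 19 of the 20 fluoxetine libraries lay below the vehicle median. Its log2 change was -0.39 with an SE of 0.06 (adjusted p = 1.77e-05), at -0.40 in HT and -0.37 in WT.

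Rpl24, also of the large subunit (chromosome 16, 55966275 to 55971435), ran from 1298 through 1791 to 2281 under fluoxetine, and from 1837 through 2414 to 4392 under vehicle. All 20 fluoxetine libraries were below the vehicle median, and the highest vehicle value, 4392 in WT vehicle male 2, stood well above the rest. It differed by -0.46 on the log2 scale (SE 0.07, adjusted p = 6.97e-05). Rpl13a fell by 19.5% and Rpl41 by 20.2%, each with all 20 fluoxetine libraries below the vehicle median. Rps21, of the small subunit, fell by 23.2%. Ribosomal protein genes have many near-identical processed pseudogenes, and reads may be divided between a gene and its copies. One such copy, Rpl14-ps1 on chromosome 7, was among the shared rises: it ran from 71.1 through 239 to 471 under fluoxetine, and was listed at 0 in 7 of 18 vehicle libraries, with a vehicle median of 62.8 and a highest value of 362. Its parent gene Rpl14 fell, with a log2 change of -0.16, and no fold is given for the copy because of the values of 0.

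Nuclear genes of the respiratory chain fell alongside. In complex I, which takes electrons from NADH, 16 of 36 tested genes (44.4%) were lower and none higher, with a median of -0.11. In complexes II to V, 16 of 41 (39%) were lower and none higher, with a median of -0.12. None of the 13 protein genes encoded in mitochondrial DNA was called, with a median of -0.06 that came to 0 after quantile normalization.

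Ndufs4, a complex I subunit whose loss causes a fatal encephalopathy in mice, lies on chromosome 13 (114287795 to 114388258). It ran from 1035 through 1270.1 to 1445 under fluoxetine, and from 1385 through 1580.3 to 2287 under vehicle. The ranges overlapped at their ends, and all 20 fluoxetine libraries were below the vehicle median. Its log2 change was -0.33 (SE 0.05, adjusted p = 8.57e-06), at -0.34 in HT and -0.32 in WT.

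Cox7a2, a subunit of cytochrome c oxidase (chromosome 9, 79755361 to 79759878), ran from 2357 through 2650.2 to 2869 under fluoxetine, and from 2751 through 3221 to 4574 under vehicle. Again all 20 fluoxetine libraries were below the vehicle median. Cox7a2 differed by -0.29 on the log2 scale (SE 0.04, adjusted p = 8.57e-06) in the pooled test and -0.29 in each genotype.

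Atp5e, the epsilon subunit of ATP synthase (chromosome 2, 174461072 to 174464105), ran from 754 through 1133 to 1359 under fluoxetine, and from 1183 through 1463 to 1994 under vehicle. All 20 fluoxetine libraries were below the vehicle median. Atp5e differed by -0.41 on the log2 scale (SE 0.06, adjusted p = 1.15e-05). Uqcrq, of complex III, fell by 17.6% and Atp5l, also of ATP synthase, by 13.6%. Ndufa2, Ndufb2 and Ndufb6 fell by 17.8%, 17.5% and 13.5%.

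**Figure D2:**
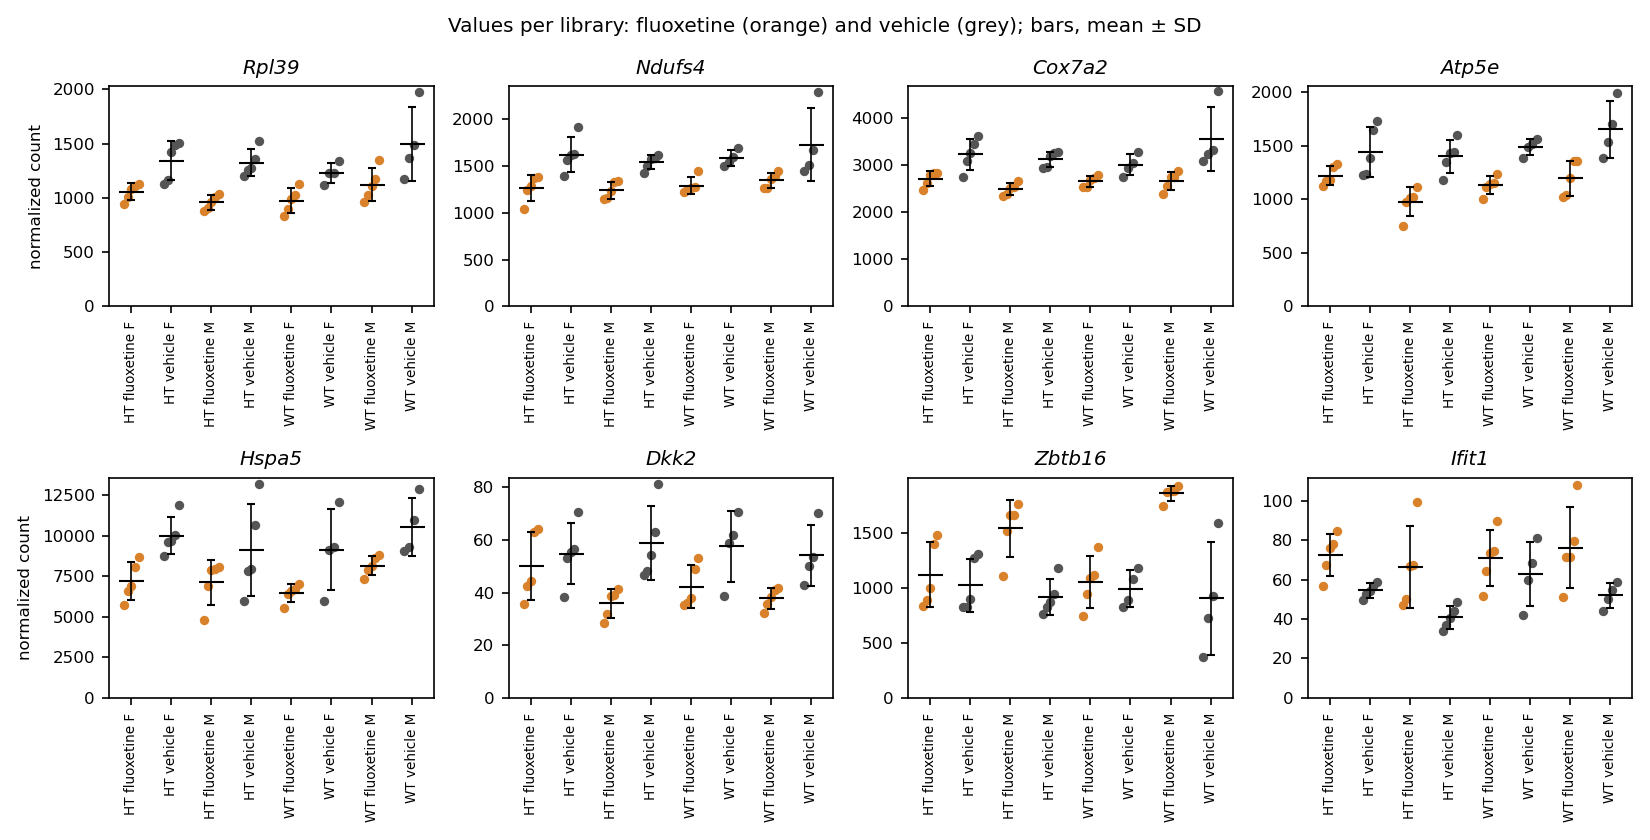
Normalized counts of 8 genes in each fluoxetine (orange) and vehicle (grey) library, by genotype and sex (F, M); horizontal marks and bars are the mean ± SD of 4 or 5 libraries. The fluoxetine mean is the lower one for Rpl39, Ndufs4, Cox7a2, Atp5e, Hspa5 and Dkk2 in each pair of groups, and Zbtb16 separates in males more than in females.

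Smaller machines of protein and RNA metabolism had fewer called members, and the share lower among all genes was 3.07%. The spliceosomal ribonucleoprotein list had 7 of 27 lower (25.9%) and none higher, among them Snrpe, which fell by 16.3%. The proteasome list had 5 of 31 lower (16.1%), with Psmb5 at -10.9%. The mitochondrial ribosome list had 6 of 78 lower (7.69%), led by Mrpl53 at -17.2%. Gpx4, the enzyme that reduces lipid peroxides, ran from 4213 through 5117 to 5545 under fluoxetine, and from 4818 through 5693 to 8975 under vehicle, with all 20 fluoxetine libraries below the vehicle median. It fell by 14% (log2 change -0.22, SE 0.04, adjusted p = 0.000143). Mt3, the brain metallothionein, Prdx2 and Gstp1 fell as well, making 4 of 24 in the antioxidant list (16.7%). Without WT vehicle male 2, 3 of the list were called lower.

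These lists consist of short transcripts, and transcript length moved with the result. Among genes whose median annotated transcript is up to 500 bases, 13.2% were called lower and 0.706% higher. Among those over 5000 bases, 0.161% were lower and 3.38% higher, and the classes between ran in order. The ribosomal protein genes had a median length of 628.5 bases, complex I genes 690.5, and all genes tested 1560. A length trend was computed for each library as the rank correlation, over genes outside the lists, of transcript length with the library's deviation from the other libraries. It averaged 0.02 ± 0.064 under fluoxetine and -0.057 ± 0.082 under vehicle (SD, n = 20 and 18), and was above 0 in 15 of 20 and 3 of 18 libraries. The difference of 0.079 had a two-sided permutation p of 0.00064, with labels exchanged within strata, and a p of 0.00171 without WT vehicle male 2. Lithium libraries averaged 0.058. The source of the trend was not tested.

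**Figure D3:**
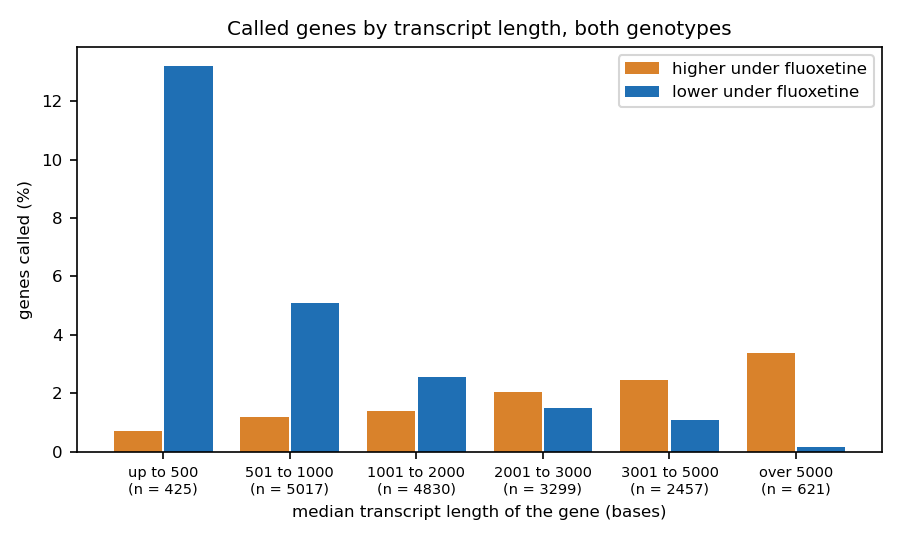
Percentage of the genes in each class of transcript length (horizontal axis, bases; n genes below) that were called higher (orange) or lower (blue) under fluoxetine over both genotypes. The share called lower is 13.2% in the shortest class and 0.161% in the longest, while the share called higher is 0.706% and 3.38%.

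With that trend as a term in the model, 78 genes were called (0.468%) in place of 791, 19 higher and 59 lower (0.354%), of which 60 were among the 791. All 791 kept their sign, and their median size was 0.11 in place of 0.17. Ribosomal protein genes called lower numbered 9 of 82 with the term, and complex I and complexes II to V had 4 each. Rpl39 (-0.25, adjusted p = 0.00629), Ndufs4 (-0.21, adjusted p = 0.00294), Cox7a2 (-0.18, adjusted p = 0.0011), Atp5e (-0.26, adjusted p = 0.00294) and Gpx4 (-0.12, adjusted p = 0.0234) were still called in limma. The spliceosomal, proteasome and mitochondrial ribosome lists had no called member with the term. Without WT vehicle male 2, and without the term, 43 ribosomal protein genes, 13 of complex I and 14 of complexes II to V were lower, and 4 of the spliceosomal, 1 of the proteasome and 3 of the mitochondrial ribosome list.

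Genes of the unfolded protein response, which restores folding capacity in the endoplasmic reticulum, were lower under fluoxetine. Of 24 tested, 9 fell (37.5%, beside 3.07% lower among all genes) and none rose. The list median was -0.14, and 8 of the 9 were shared. The 9 were the chaperones and folding enzymes Hspa5, Sdf2l1, Dnajc3, Pdia6, Pdia4 and Creld2, the secreted factor Manf, and the transcription factors Xbp1 and Ddit3.

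Hspa5, which encodes the main chaperone of the endoplasmic reticulum (BiP; chromosome 2, 34771970 to 34777547), ran from 4783 through 7194 to 8793 under fluoxetine, and from 5955 through 9479.5 to 13182 under vehicle. The groups overlapped in their lower range, while all 20 fluoxetine libraries were below the vehicle median. The log2 change was -0.41 (SE 0.09, adjusted p = 0.00303), and it was -0.48 and -0.33 in HT females and males, and -0.46 and -0.36 in WT females and males.

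Sdf2l1, a partner of the BiP chaperone cycle, ran from 160.2 through 288 to 413 under fluoxetine, and from 196 through 408 to 887 under vehicle. In 19 of 20 fluoxetine libraries it was below the vehicle median. It fell by 32.7% (log2 change -0.57, SE 0.12, adjusted p = 0.00416). Manf, a neurotrophic factor retained in the endoplasmic reticulum, fell by 21.8% and Dnajc3, a BiP co-chaperone, by 13.1%. The log2 changes of Pdia6, Creld2 and Pdia4 were -0.29, -0.30 and -0.30. With the length term none of the 9 was called, and Hspa5 had -0.31 (adjusted p = 0.0943). There were 6 called without WT vehicle male 2.

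Several promoters of this list hold a known element, the endoplasmic reticulum stress element, searched for on both strands as CCAAT and CCACG with 9 bases of any kind between them, in the window from 250 bases before to 50 after each RefSeq gene start (GRCm38.p6). Of 12086 promoters of tested genes 0.149% hold it, against 8 of 22 in the unfolded protein response list (36.4%) and 4 of the 8 called genes with an entry. The 130 bases before the start of those 4, all on the plus strand, are shown with the fixed letters of the element in capitals, since they carry the same element at different distances from the start. In Creld2 the element reads on the opposite strand. For Hspa5 the RefSeq start used here lies 120 bases after the start of the GENCODE gene position given above. Most of its window, and the marked element, thus lie inside that position. The windows are chr2:34771960-34772089 for Hspa5, chr12:17266459-17266588 for Pdia6, chr14:118937802-118937931 for Dnajc3 and chr15:88819516-88819645 for Creld2.
Hspa5: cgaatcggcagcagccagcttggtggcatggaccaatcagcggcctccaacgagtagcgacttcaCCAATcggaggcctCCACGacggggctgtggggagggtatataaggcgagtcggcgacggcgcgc
Pdia6: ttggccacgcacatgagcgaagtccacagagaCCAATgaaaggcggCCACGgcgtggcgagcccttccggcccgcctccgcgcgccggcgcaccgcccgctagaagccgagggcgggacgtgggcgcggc
Dnajc3: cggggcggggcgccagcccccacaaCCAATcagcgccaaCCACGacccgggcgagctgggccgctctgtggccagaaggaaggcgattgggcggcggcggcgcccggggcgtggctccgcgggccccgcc
Creld2: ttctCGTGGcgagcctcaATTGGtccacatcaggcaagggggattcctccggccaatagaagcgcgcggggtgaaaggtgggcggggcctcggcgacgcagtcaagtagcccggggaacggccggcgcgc

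Other chaperone and matrix genes were among the largest shared falls. Hspb1, a small heat shock protein, ran from 104 through 137 to 178 under fluoxetine, and from 97 through 181 to 318 under vehicle, where the spread was wider. It fell by 28% (log2 change -0.47, SE 0.11, adjusted p = 0.00616). In all, 3 of 15 heat shock genes were lower (20%, beside 3.07% lower among all genes). Without WT vehicle male 2 there were 2, and with the length term none. Serpinh1, the chaperone of collagen, fell by 22.5% and Emilin1, a glycoprotein of elastic fibres, by 29.9%. Neither was called with the length term (adjusted p = 0.119 and 0.0612, limma) or with the mean haemoglobin level as a term.

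Dkk2, a secreted modulator of Wnt signalling (chromosome 3, 132085292 to 132180304), ran from 28.6 through 38.9 to 64.2 under fluoxetine, and from 38.5 through 54.9 to 81.1 under vehicle. The groups overlapped, with 18 of 20 fluoxetine libraries below the vehicle median. The log2 change was -0.43 (SE 0.09, adjusted p = 0.00302), and it was called with the length term (-0.49, adjusted p = 0.0105) but not with a haemoglobin term (-0.33, adjusted p = 0.0622). Lithium libraries, which ran from 44.3 through 55.1 to 76.4, differed from fluoxetine libraries by -0.43, fluoxetine minus lithium (adjusted p = 0.00272).

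The remaining large falls belong to no common list. Gpr160, an orphan receptor at a median of 15.6 under fluoxetine and 23.2 under vehicle, fell by 33.4%. Pglyrp1, which binds bacterial peptidoglycan, fell by 24.5%, Slc15a3, a lysosomal transporter, by 23.7%, and S1pr2, a receptor for sphingosine 1-phosphate, by 22.8%. Tmem256 fell by 24.2% (adjusted p = 1.83e-05) and was called with the length term (adjusted p = 0.00563, limma). Gpr160, Pglyrp1, Slc15a3 and S1pr2 were not called with it (adjusted p = 0.215, 0.133, 0.0529 and 0.0529). Gpr160 and Pglyrp1 were not called with a haemoglobin term either.

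Among the genes that rose, Zbtb16 and Ntsr1 met the test in every alternative tried and in each of the 38 runs that left out 1 library. Zbtb16, a zinc finger repressor known to be induced by glucocorticoids (chromosome 9, 48654297 to 48836222), ran from 739 through 1438 to 1919 under fluoxetine, and from 371 through 893 to 1588 under vehicle. In 17 of 20 fluoxetine libraries it was above the vehicle median. Its log2 change was 0.54 (SE 0.11, adjusted p = 0.00303), a rise of 45.4%.

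Zbtb16 was examined by sex after its values were seen. Its log2 change was 0.12 and 0.75 in HT females and males, and 0.07 and 1.22 in WT females and males, with WT fluoxetine males between 1741 and 1919 and WT vehicle males between 371 (WT vehicle male 2) and 1588. The difference, -0.89 for females minus males with an SE of 0.23, had an unadjusted p of 0.00028 and missed the threshold after adjustment (adjusted p = 0.182, limma). Lithium libraries had Zbtb16 between 886 and 1879.7, and fluoxetine minus lithium was 0.01 (adjusted p = 0.976). In the list of glucocorticoid and FOXO targets, 2 of 30 rose, beside 1.68% higher among all genes. They were Zbtb16 and the mineralocorticoid receptor gene Nr3c2 (10.1%), and the list median was 0.03. Nr3c2 was not called with the length term or without WT vehicle male 2, which left 1 of the 30 higher without that library.

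Ntsr1, the neurotensin receptor that marks corticothalamic neurons of the deepest cortical layer (chromosome 2, 180499976 to 180544980), ran from 221 through 353 to 455 under fluoxetine, and from 171 through 273 to 347 under vehicle. All 10 HT and 5 of 10 WT fluoxetine libraries lay above the median of the 18 vehicle libraries. Ntsr1 differed by 0.38 on the log2 scale (SE 0.07, adjusted p = 0.000863), at 0.36 in HT and 0.40 in WT. Bcl11b, a transcription factor of the same deep layers, rose by 19.7% (adjusted p = 0.0481), and with Ntsr1 it made 2 of 20 deep layer genes, beside 1.68% higher among all genes. Bcl11b was called in 13 of the 38 runs that left out 1 library and in 6 of 14 other alternatives, and was not called without WT vehicle male 2 (adjusted p = 0.10) or with the length term (adjusted p = 0.468). In bulk tissue, more cells of a type and more RNA per cell cannot be told apart.

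Interferon-stimulated genes, the antiviral set switched on by interferon receptors, supplied several of the largest shared rises: Ifit1, Oasl2, Ifi44 and Irf7 were among the first 15. The list of 37 tested genes was added after those values were seen, so its count carries no weight of its own. It had 5 members higher, beside 1.68% higher among all genes, with Ifit3 as the fifth, and none lower, and a median of 0.09. The list's mean log2 deviation per library showed no clear rise in WT females: -0.12 to 0.15 under fluoxetine and -0.11 to 0.28 under vehicle. In WT males it ran from 0.18 to 0.38 and from -0.26 to 0.11. In HT females it ran from 0.08 to 0.22 and from -0.27 to 0.03. In HT males it ran from -0.34 to 0.13 and from -0.33 to -0.16. Ifit1, which binds foreign RNA (chromosome 19, 34640871 to 34650009), ran from 47.1 through 71.4 to 108 under fluoxetine, and from 33.8 through 51.5 to 80.8 under vehicle. The groups overlapped, with 17 of 20 fluoxetine libraries above the vehicle median. The log2 change was 0.43 (SE 0.11, adjusted p = 0.0146), at 0.52 in HT and 0.35 in WT.

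Irf7, the transcription factor that amplifies the interferon response, ran from 52.8 through 77.3 to 120.2 under fluoxetine, and from 39.4 through 57.3 to 91.7 under vehicle. It was above the vehicle median in 19 of 20 fluoxetine libraries and rose by 30.9% (adjusted p = 0.0248). Oasl2, of the oligoadenylate synthetase family, rose by 33.7% (adjusted p = 0.0135), and Ifi44 by 33.7% (adjusted p = 0.0441). With the length term the sizes were similar (0.42 for Ifit1, 0.47 for Irf7, 0.46 for Oasl2), but none was called, with adjusted p of 0.0995, 0.052 and 0.0529. Without WT vehicle male 2 there were 4 called members of the list, and 2 with a haemoglobin term.

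The interferon-stimulated response element, searched for on both strands as GAAA and GAAA with 2 bases of any kind between them, in the same promoter windows, is held by 2.85% of all promoters and by 14 of 27 in the interferon list (51.9%), 2 of them among the 5 called genes. Those 2 are shown over the 130 bases before the start, on the plus strand at chr19:34640759-34640888 for Ifit1 and chr19:34583399-34583528 for Ifit3 (RefSeq, GRCm38.p6), with the element in capitals, here read on the opposite strand.
Ifit1: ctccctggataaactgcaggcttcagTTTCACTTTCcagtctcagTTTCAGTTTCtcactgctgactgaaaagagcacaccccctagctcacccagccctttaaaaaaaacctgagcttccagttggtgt
Ifit3: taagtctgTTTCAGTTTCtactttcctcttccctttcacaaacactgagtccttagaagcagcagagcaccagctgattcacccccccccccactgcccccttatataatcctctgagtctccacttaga
The motifs, 4 in all, were chosen from textbook knowledge of these pathways, and a match shows the letters alone. The element of the nuclear respiratory factor NRF1, searched for on both strands as GCGCA, any base and GCGC, was in 9.52% of all promoters, 12.4% of those of shared genes that fell, 7 of 32 in the complex I list (21.9%) with 4 of its 14 called genes (28.6%), and 10 of 32 in the list of complexes II to V (31.2%) with 2 of its 13 called genes (15.4%). The sterol element, searched for on both strands as TCAC, any base and CCAC, was in 1.07% of all promoters, in 1 of 17 of the cholesterol synthesis list and in 0 of its 3 called genes.

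**Figure D4:**
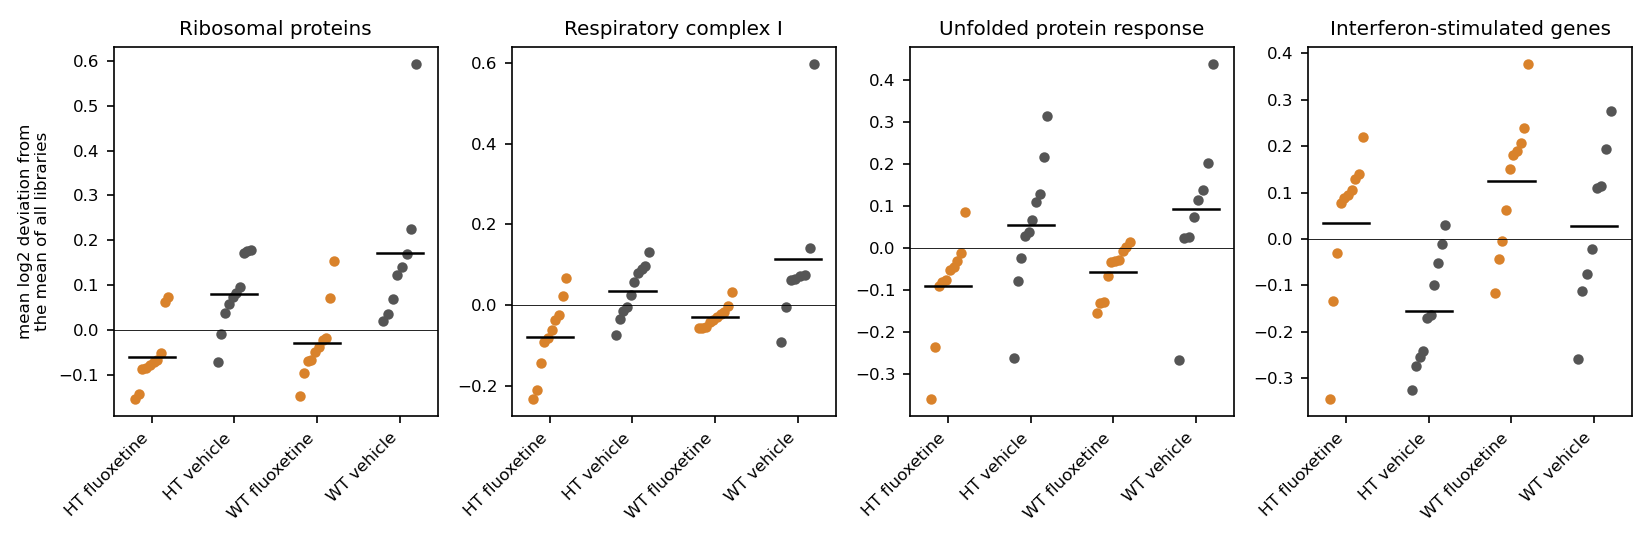
Mean log2 deviation of a list's genes from their mean over all libraries, 1 point per library, fluoxetine (orange) left of vehicle (grey) in HT and in WT; lines are group means. Ribosomal protein, complex I and unfolded protein response genes lie lower under fluoxetine on average in both genotypes, and the highest vehicle point in each of these 3 panels is WT vehicle male 2.

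Other rises were spread over unrelated functions. Aff1, a part of the elongation machinery of RNA polymerase, ran from 456 through 637 to 842 under fluoxetine, and from 279 through 513 to 862 under vehicle, and rose by 28.4% (adjusted p = 0.0109). B3galt5, a galactosyltransferase, ran from 587 through 731 to 964 under fluoxetine, and from 472 through 569 to 901 under vehicle. All 20 fluoxetine libraries exceeded its vehicle median, and it rose by 22.6% (adjusted p = 0.00693). Galnt15, which starts O-linked glycosylation, rose by 34.8% and also stood above lithium libraries, by 0.56 (adjusted p = 0.00395). Slfn9, Pkdrej, Cdsn, Cpm and Txnrd3 complete the named rises, at 23.4% to 36.3%. With the length term Galnt15 was called (adjusted p = 0.0234, limma), but not with a haemoglobin term. No other gene of this paragraph was called with the length term, with adjusted p from 0.0586 (Cpm) to 0.182 (Txnrd3). Cdsn was called in 25 of the 38 runs that left out 1 library.

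Several regulators, receptors and channels were called higher. Auts2, an autism risk gene and partner of Polycomb complexes, ran from 2300.4 through 2701 to 3333 under fluoxetine, and from 1579.8 through 2313 to 2882 under vehicle. It was above the vehicle median in 19 of 20 fluoxetine libraries and rose by 17.9% (adjusted p = 0.00119). In the list of autism risk chromatin and transcription regulators 4 of 40 rose, with Tcf20, Smarcc2 and Bcl11a, and none fell, beside 1.68% higher among all genes. Among ionotropic glutamate receptor genes 3 of 31 rose, namely Grin2d (13.8%), Gria4 (11.5%) and Grik1 (12.5%), and Grm8 (17.6%) was the 1 of 7 metabotropic receptor genes. Grin2d encodes an NMDA receptor subunit, and its change was 0.29 in HT and 0.08 in WT, with the difference between genotypes not called (adjusted p = 0.599). The calcium channel gene Cacna1b and the nuclear receptor gene Rora rose, and Kcnv1, a silent potassium channel subunit, fell by 12%. With the length term none of these was called, and Auts2 had 0.14 (adjusted p = 0.112). Without WT vehicle male 2, 2 of the autism risk regulators and 2 of the ionotropic receptor genes were higher.

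Cholesterol synthesis genes had the largest share of members that differed between fluoxetine and lithium among the lists. Of 25 genes, 5 (20%, beside 3.07% among all genes) were lower under fluoxetine than under vehicle. None was higher, and the list median was -0.13. Fdps, which makes farnesyl diphosphate, ran from 895 through 1211 to 1515 under fluoxetine, and from 1227 through 1435 to 2133 under vehicle, with 19 of 20 fluoxetine libraries below the vehicle median. It fell by 16.4% (adjusted p = 0.00051), and was called with the length term (adjusted p = 0.0339). Idi1, Sqle, Acat2 and Cyp51 were the other 4. Without WT vehicle male 2 there were 3 lower, with the length term 1, Fdps, and with a haemoglobin term 1. In the direct test of fluoxetine against lithium, whose difference uses no vehicle library (the spread estimate does), 777 genes were called (4.66%), 376 higher (2.26%) and 401 lower (2.41%) under fluoxetine. Cholesterol genes lower under fluoxetine than lithium numbered 19 of 25. Sqle, the squalene epoxidase, averaged 1895 ± 269 under fluoxetine and 2409.8 ± 251 under lithium (SD, n = 20 and 19; log2 difference -0.35, adjusted p = 7.47e-06). Of the 505 shared genes, 41 also differed from lithium. Both drugs were compared with the same vehicle libraries: the ribosomal protein list had a median of -0.16 under fluoxetine and -0.20 under lithium, complex I -0.11 and -0.08, complexes II to V -0.12 and -0.06, the unfolded protein response list -0.14 and -0.05, the spliceosomal list -0.09 and -0.11, and cholesterol synthesis -0.13 and 0.13, each against vehicle. Among genes, Rpl24 had -0.46 under fluoxetine and -0.47 under lithium, Rpl39 -0.39 and -0.30, Hspa5 -0.41 and -0.26, Cox7a2 -0.29 and -0.12, and Sqle -0.19 and 0.17, each against vehicle.

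Immediate early genes, which neurons switch on with activity, had 1 called member of 25, Junb (4%, beside 3.07% lower among all genes). The list median was -0.17. Junb ran from 612 through 1306 to 1897 under fluoxetine, and from 1243 through 1511 to 2417 under vehicle. The groups overlapped, with 11 of 20 fluoxetine libraries below the vehicle median, and it fell by 22.4% (adjusted p = 0.0351), at -0.55 on the log2 scale in WT and -0.19 in HT. Without WT vehicle male 2 none was called, and with the length term 5 of the 25 were lower, beside 0.354% of all genes. Against lithium, 10 of the 25 were lower under fluoxetine, beside 2.41% of all genes.

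**Figure D5:**
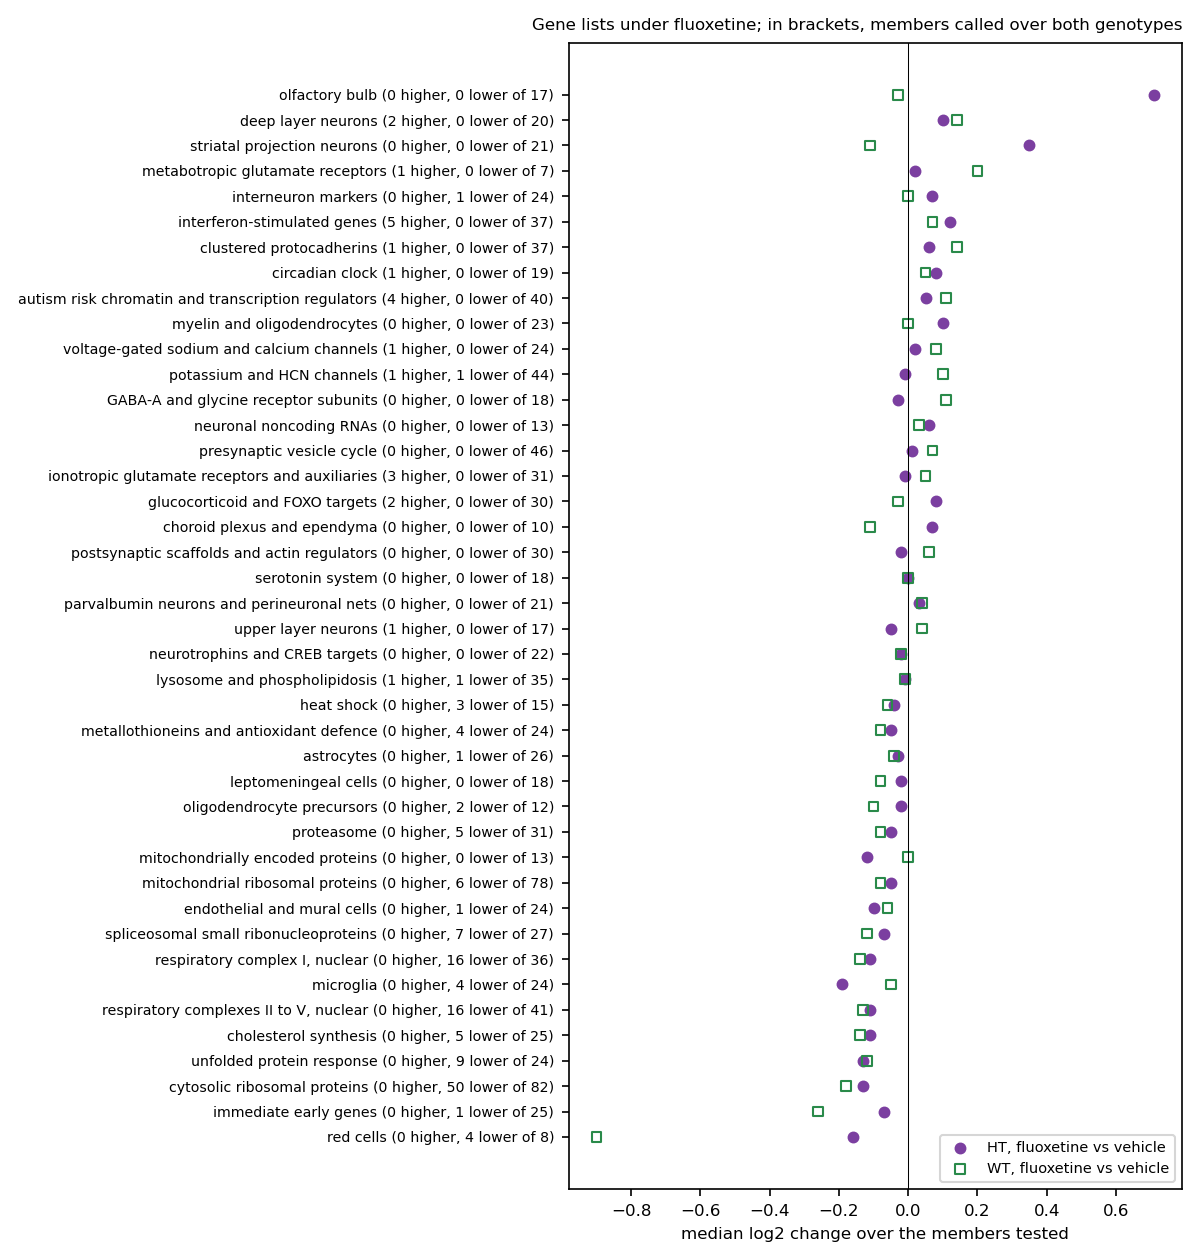
Median log2 change, fluoxetine against vehicle, over the tested members of each gene list in HT (filled circles) and WT (open squares), with the members called over both genotypes in brackets. Ribosomal protein, respiratory chain and unfolded protein response lists lie below 0 in both genotypes, while the olfactory bulb list is at 0.71 in HT and -0.03 in WT.

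Some markers of non-neuronal cells were called. All 4 haemoglobin genes fell, 4 of the 8 red cell genes (50%, beside 3.07% lower among all genes). Hbb-bs ran from 853 through 2015 to 3475 under fluoxetine, and from 1556 through 2955 to 7244 under vehicle (log2 change -0.66, SE 0.15, adjusted p = 0.00611). The fall was -1.03 in WT and -0.30 in HT, and none of the 4 was shared. Red cell genes called lower numbered 3 without WT vehicle male 2 and 1, Hbb-bs, with the length term. With that term 0.354% of all genes were lower. The summed red cell markers ran from 15236 to 24156 under fluoxetine and from 18795 to 32356 under vehicle. With the mean haemoglobin level as a term, 482 genes were called, and the ribosomal protein, complex I and unfolded protein response lists had 35, 10 and 4 lower members.

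Olig2, a transcription factor of oligodendrocyte precursors, ran from 386 through 620 to 725 under fluoxetine, and from 555 through 736 to 1106 under vehicle, with all 20 fluoxetine libraries below the vehicle median. It fell by 20.4% (adjusted p = 0.00221), one of 2 precursor genes of 12, beside 3.07% lower among all genes. Neither Olig2 (adjusted p = 0.0833) nor the other, Neu4, was called with the length term, while none of the 23 myelin and oligodendrocyte genes was called. Cldn5, of endothelial tight junctions, fell by 16.7% (adjusted p = 0.00879), the 1 called of 24 endothelial and mural genes, a share near that of all genes. Microglial genes had 4 of 24 lower, namely Aif1, Tyrobp, Gpr34 and P2ry13, and 1 of the 4 was shared. The microglial list median was -0.19 in HT and -0.05 in WT. In that list 2 were lower without WT vehicle male 2, and none with the length term or once haemoglobin was a term. Astrocyte genes had Mlc1 alone of 26, again near the share of all genes. Cldn5 and Mlc1 were not called with the length term (adjusted p = 0.101 and 0.297) or with the haemoglobin term (adjusted p = 0.124 and 0.163). Summed microglial markers ran from 11402 to 22589 under fluoxetine and from 15935 to 24717 under vehicle. The part of cell makeup in the other results was not tested.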

How the data were processed

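RNA from the prefrontal cortex was sequenced with a TruSeq stranded mRNA kit, per the labels' protocols. The authors' deposited table holds 1 value per gene and library, a normalized signal (counts scaled between libraries, not whole numbers); the submitters' processing notes name Salmon 0.11.2, DESeq2 1.19.11, R 3.6.0 and GRCm38. Depth per library is unknown, so no counting interval is given. Gene positions and transcript lengths are from a GENCODE annotation of GRCm38. Tables and plots used Python 3.11.15 with pandas 2.3.3 and matplotlib 3.10.9.

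Values were taken as log2(value + 1) for the 16659 genes with a mean of at least 10, and fitted with limma 3.58.1 (trend and robust moderation) in 1 model of 12 groups (genotype, drug and sex) over 57 libraries. Fold changes on this scale understate low genes. Contrasts average fluoxetine minus vehicle over 4 strata, and a gene was called at a Benjamini-Hochberg adjusted p under 0.05 across all 16659. Scripts were tested on simulated data. Alternatives included quantile normalization, array weights, 2 surrogate variables (the iteratively re-weighted algorithm, written in R 4.3.3), a transcript-length term, other pseudocounts and minimums, and leaving out each library.

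The comparison and the lists were chosen with earlier results of these data known. Genes named are the 15 largest shared rises and 15 falls, up to 4 called members per list by p, called differences between genotypes, sexes or drugs, and the serotonin genes tested; others were named for being called in both genotypes or as the remaining called members of a short list. Of the drug differences (5 each way by p) only those bearing on the lists are given. Of the list symbols, 3 were not matched. All columns of the table matched a sample. One gene is not reported here.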

Additional observations from a re-analysis of the deposited data

Results flagged for a closer look

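In 31 genes and 248 groups of 4 or 5 libraries, 16 values lay far from the rest of their group, where chance gives about 1 in 20 groups. Shank2 was 4814 in HT fluoxetine female 1 and 3877 in HT fluoxetine male 3, the lowest HT value, and every HT library lay below every WT library. Sdf2l1 was 160.2 in HT fluoxetine male 3, 540.2 in HT vehicle female 2 and 887 in WT vehicle male 2. Among rises, Rpl14-ps1 was 131 in WT vehicle female 1 (the other libraries of that group were listed at 0), Galnt15 was 191 in WT vehicle male 3, Oasl2 was 94.5 in HT vehicle male 1, and Ifi44 was 30.2 in HT vehicle male 3. Ntsr1 was 455 in HT fluoxetine male 5, Cdsn was 49.6 in WT fluoxetine female 1, and Txnrd3 was 251 in WT vehicle female 1. Among falls, Gpr160 was 42.5 in WT vehicle female 4, Emilin1 was 99.2 in HT vehicle male 4, Pglyrp1 was 197 in WT fluoxetine male 2, and Serpinh1 was 1501 in WT vehicle female 3.

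The fluoxetine effect on Sox8 differed between the sexes by 0.56 on the log2 scale, higher in females, and passed the test of that difference.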

How the results depend on the processing

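The pooled count of 791 ranged from 486 to 1288 over the 38 runs that left out 1 library; it was 486 without WT vehicle male 2, 1288 without WT vehicle female 1 and 1194 without WT vehicle male 1. The shared count ranged from 330 (without WT vehicle male 2) to 739, the HT count from 19 (HT vehicle female 3 left out) to 203 (WT vehicle male 2 left out), with 171 when HT vehicle male 2 was left out, and the WT count from 5 (without WT vehicle male 2) to 563 (without WT vehicle male 1), with 289 without WT vehicle male 4. The HT count moved by over 1.5 times with 16 single libraries left out, and the WT count with 11. Genes called against lithium ranged from 605 to 1211 (without WT vehicle male 2), for the genotype difference from 0 to 1, and for the sex difference from 1 to 3. The effects in HT and WT correlated at 0.213 without WT vehicle male 2.

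The length term gave 78 pooled, 72 shared, 109 HT and 0 WT calls. With no minimum value there were 469 pooled, 23 HT, 41 WT and 470 lithium calls, and with a minimum mean of 50 there were 93 HT calls. Array weights gave 1239 pooled (559 higher, 680 lower), 365 HT and 2086 lithium calls. Surrogate variables gave 152 HT and 1190 lithium calls. Fitting the 38 libraries alone gave 33 HT and 51 WT calls. The haemoglobin term gave 482 pooled, 30 HT and 401 lithium calls, and olfactory bulb and striatal terms 229 WT and 441 lithium calls, both chosen after seeing the data. The cause of these shifts was not tested. No named gene that was called changed sign in any alternative run for it.

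With the replicate number of the sample titles as a block, 627 genes were called over both genotypes and 47 in WT. The title numbers do not pair the libraries: 28 of 300 same-number pairs correlated above 0.1, the mean correlation was -0.008, and 10 of 57 libraries correlated best with their own number. Library names number the WT vehicle females differently, and those numbers were not tested.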

Other observations

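Markers of neighbouring tissue varied widely between libraries of 1 group. The olfactory bulb list had no called member of 17, yet its median was 0.71 in HT and -0.03 in WT, and the striatal list, with none of 21 called, had 0.35 and -0.11. Summed olfactory bulb markers ran from 9775 to 26623 in HT fluoxetine libraries and from 9458 to 17919 in HT vehicle libraries, and from 8539.8 to 33868 in WT fluoxetine libraries and from 8946 to 39703 in WT vehicle libraries. The ranges overlapped in both genotypes. Their part in the results was not tested beyond the fit with both lists as terms.

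Synaptic lists held few calls. None of 46 presynaptic vesicle genes, 30 postsynaptic scaffold genes, 18 GABA-A and glycine receptor genes or 21 parvalbumin neuron and perineuronal net genes was called, with medians of 0.04, 0.02, 0.05 and 0.01. Vip, a peptide of cortical interneurons, fell by 13.5% (adjusted p = 0.0265), the 1 called of 24 interneuron genes (4.17%, beside 3.07% lower among all genes). It was not called without WT vehicle male 2 or with the length term (adjusted p = 0.62, limma). Of 37 clustered protocadherin genes, Pcdhb22 alone was called, a share near the 1.68% higher among all genes. It rose by 13.3% (adjusted p = 0.0293), and none of the 37 was called without WT vehicle male 2 or with the length term. Ccnd1, chosen by the rule for differences between drugs, fell by 14.4% against vehicle (adjusted p = 0.00546) and was lower than under lithium by 0.37 (log2 difference -0.37, adjusted p = 5.73e-06). Its fall against vehicle was not called with the length term (adjusted p = 0.0827, limma) or with a haemoglobin term.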
